A study of Mus musculus with 9 samples.

Results

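Matrix metalloproteinases (MMPs) and their tissue inhibitors (TIMPs) were followed across the cells of mouse mammary tumours. Members were the rows of the feature table with the symbols Mmp2, Mmp9, Mmp10, Mmp11, Mmp12, Mmp13, Mmp14, Timp1, Timp2 and Timp3, which are 10 of 32286 features. Mmp3, the stromelysin that the study followed up, was not a member and appears only as a reference. The question addressed was which cells of the tumour carried the transcript of each enzyme and inhibitor, and whether those levels differed with the genotype of the tumour cells.

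MMPs are zinc-dependent endopeptidases that cut collagens, laminins, elastin and other components of the extracellular matrix. Most are secreted as inactive proenzymes, whereas Mmp14 (MT1-MMP) is anchored in the plasma membrane and activates pro-Mmp2 in a complex with Timp2. Mmp2 and Mmp9 are the gelatinases, Mmp10 is a stromelysin, Mmp13 a collagenase, Mmp12 the macrophage elastase, and Mmp11 a stromelysin activated inside the cell by furin. TIMPs bind active MMPs and block their catalytic site, and Timp3 is held in the extracellular matrix. Within tumours, much MMP activity is commonly attributed to stromal and myeloid cells rather than to the carcinoma cells.

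The samples were 9 tumours that had grown at the orthotopic mammary site of female BALB/c mice after injection of 168FARN, a non-metastatic mouse mammary tumour line. The tumour cells of 3 tumours were wild type (WT), those of 3 carried a Kmt2c knockout (Kmt2c KO) and those of 3 a Kmt2d knockout (Kmt2d KO), made with a pool of guides against exon 1 of the gene, so that each knockout is a sorted pool of edited cells and not a clone. Kmt2c and Kmt2d encode histone H3 lysine 4 methyltransferases. All injected cells, the WT cells included, carried an H2B–mCherry reporter whose transcript is listed as H2BMc, and the host stroma and immune cells of every mouse were unedited. Whole tumour suspensions were made into droplet-based 5′ single-cell RNA libraries, 1 per tumour. The tumours of a group replicate the mouse and not the making of the knockout line, so that p-values measure the spread between tumours of a line. The numbers given to libraries are names only.

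The 9 libraries held 21529691 to 125617312 unique molecular identifiers (UMIs), with the fewest UMIs and the fewest cells in the 3 WT libraries. Per kept cell the WT libraries were the deepest, with medians of 10471.5 to 13754 UMIs against 2110 (Kmt2d KO library 3) to 9197 in the knockout libraries. The median mitochondrial share over all barcodes was 15.7%, 4.88% and 27.8% in the WT libraries and 3.75% to 8.995% in the knockout libraries, before cells above 15% were removed, and 58645 cells passed the filters of the study. Of these, 1889 barcode sequences occurred in more than 1 library and covered 3819 cells. Sums of H2BMc-positive cells separated along a first principal component (53.1% of the variance) into the 3 WT libraries, at −38.7 to −37.8, and the 3 Kmt2c KO libraries, at 30.1 to 45.9. Kmt2d KO libraries 1 and 3 lay at −14.7 and −16.3, but Kmt2d KO library 2 lay at 31.1, among the Kmt2c KO libraries, and results that it changed in call or sign or by over 1.5 times are given with and without it. In H2BMc-positive cells, Kmt2c measured 48.1 to 49.1 counts per 1000000 UMIs (CPM) in WT and 43.9, 42.0 and 57.6 CPM in Kmt2c KO libraries 1 to 3, of which 2 lay below and 1 above all WT libraries. Kmt2d measured 14.9 to 21.4 CPM in WT and 24.3 to 31.9 CPM in Kmt2d KO, so transcript level did not check the labels.

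Cells with at least 1 H2BMc UMI were taken as tumour cells. They numbered 16707, or 28.5% of the kept cells, and 79.9% of them also held the keratin transcript Krt8. Of the other tumour markers looked up, Epcam, Krt18 and Krt7 were at or near 0, and several fibroblast genes (Pdgfra, Clec3b, Lum) were read in the H2BMc-positive cells. Those genes were therefore not used to gate fibroblasts. Stromal and immune classes were gated on at least 2 markers of a type, no H2BMc or Krt8 UMI, and fewer markers of every other type. The gates held 159 fibroblasts, 439 endothelial cells, 116 mural cells and 700 macrophages, beside 222 dendritic cells and 350 T cells. In all they held 1986 of the 58645 kept cells. Cells that were neither H2BMc-positive nor gated, which were most of the kept cells, belonged to no class. The class levels below do not cover them. Fibroblasts held Col1a2 at 8322 CPM against 1.5 CPM in H2BMc-positive cells, endothelial cells Pecam1 at 1236 against 1.20 CPM, mural cells Rgs5 at 6328 against 0.483 CPM, and macrophages Csf1r at 617 against 0.583 CPM. These genes were themselves gate markers, so the gating set these differences and they do not check it. Fibroblasts numbered 3 to 47 and mural cells 3 to 25 per library, so that values of single libraries in these gates rest on few cells. Every adjusted p below is from edgeR's quasi-likelihood test on counts summed per library, with Benjamini–Hochberg adjustment over all genes tested, unless another test is named, and genes were called at an adjusted p below 0.05.

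The members differed in the cells that held them. Among the H2BMc-positive and gated classes, Mmp9 and Mmp10 were read mainly in H2BMc-positive cells. Mmp2 and Timp1 were highest in fibroblasts, Timp3 in mural cells, endothelial cells and fibroblasts, and Mmp12 and Mmp13 in macrophages. Mmp14 and Timp2 were shared between H2BMc-positive cells and stroma, with the fibroblast and H2BMc-positive ranges overlapping. Mmp11 was low wherever it was read. Levels are compared between cell classes for each gene and not between genes.

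**Figure D1:**
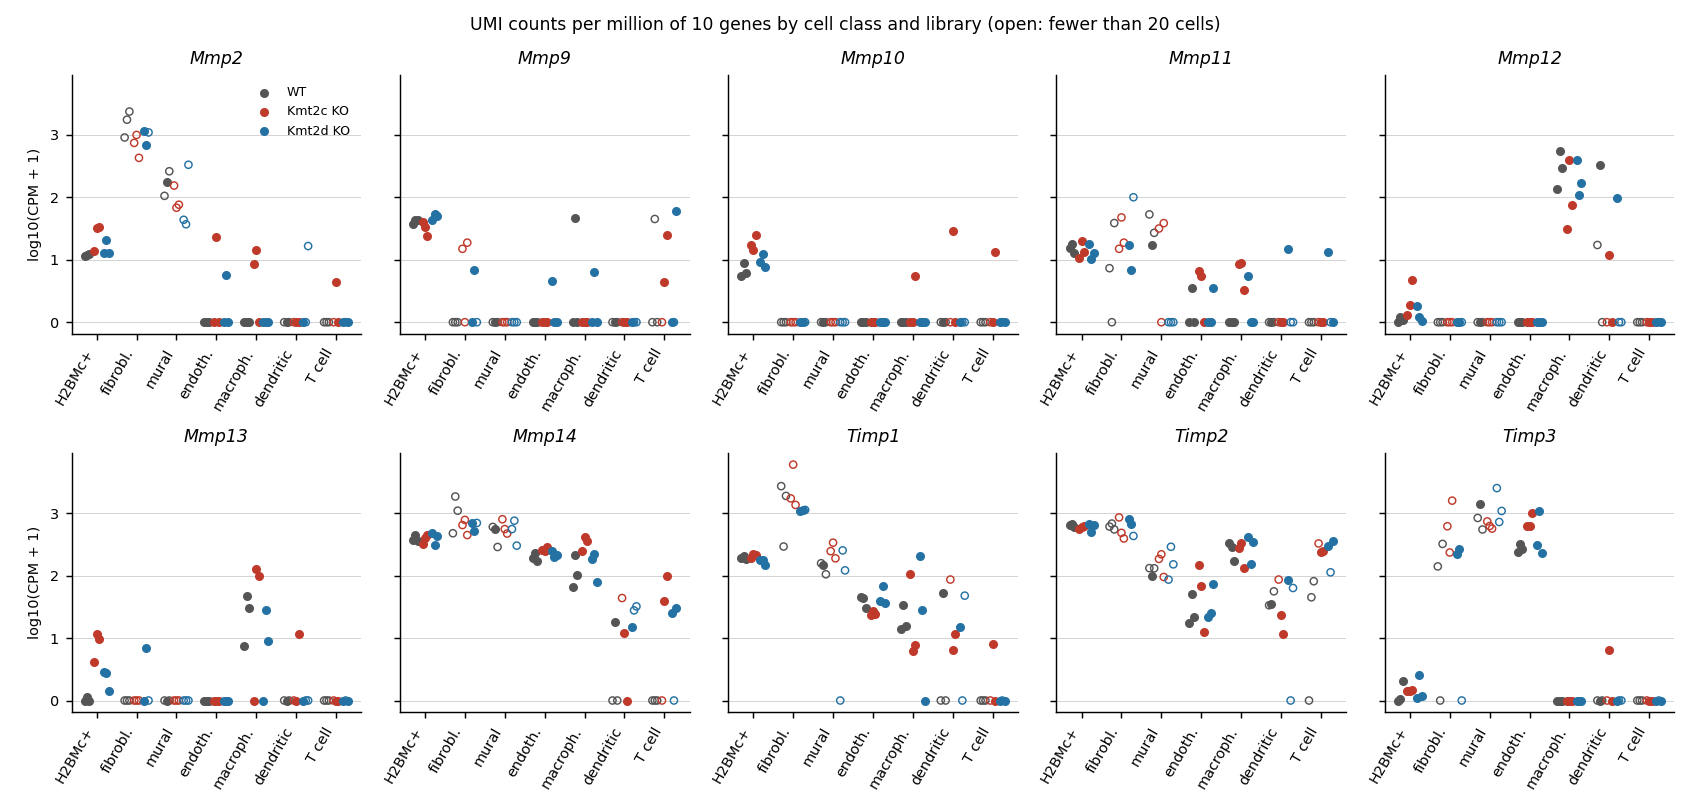
Level of each of the 10 genes as log10(CPM + 1), where CPM relates the UMIs of the gene to all UMIs of the same cells, by cell class (x axis) and library (points, coloured by genotype). Open points rest on fewer than 20 cells. Mmp9 and Mmp10 are above 0 in all 9 libraries in the H2BMc-positive column and in no other. Mmp12 is highest in macrophages and lower in dendritic cells, and Timp3 is near 0 in H2BMc-positive cells and at 0 in macrophages.

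Class sums of each library with at least 20 cells were compared with the H2BMc-positive sums of the same libraries (38 sums and 9809 genes, with library as a block). Of the 10 members, 8 passed the filter on low counts and Mmp10 and Mmp11 did not. The share of all genes called was 63% for endothelial cells, 66.6% for macrophages, 27.5% for fibroblasts and 11.3% for mural cells. Among the 8 members, 6, 7, 4 and 3 were called in the same order. A call therefore says little by itself in endothelial cells and macrophages, and the sizes below carry the comparison. The median log2 difference over all genes was −0.19, −0.15, −0.25 and −0.59 in the same order. Only 2 fibroblast sums (Kmt2d KO libraries 1 and 2) and 1 mural sum (WT library 2) reached 20 cells, so that the fit was repeated with sums of at least 10 cells, which gave 6 fibroblast and 7 mural sums. A class with 1 sum has no spread of its own, and its error is then taken from the other classes, on the assumption that it varies like them. Fibroblast calls were split 1472 higher and 1221 lower (54.7% higher), which became 68.3% higher under DESeq2's size factors, and mural calls went from 59.6% to 76.6% higher. Without Kmt2d KO library 2, which leaves 1 fibroblast sum, 1563 genes were called in fibroblasts in place of 2693 and 73.3% of the calls were higher.

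Mmp14, the membrane-anchored activator of pro-Mmp2, was read in every gate. Fibroblasts held 641 CPM over all their cells (95% Poisson interval, 589 to 697), mural cells 533, H2BMc-positive cells 397, macrophages 244 and endothelial cells 217 CPM. By library, fibroblasts ranged from 444 to 1840 and H2BMc-positive cells from 307 to 470 CPM, so that the upper classes overlapped. All 9 endothelial values, 172 to 288 CPM, lay below all 9 H2BMc-positive values. In the fit, Mmp14 was lower in endothelial cells by 0.91 ± 0.17 log2 (SE; adjusted p = 7.7e-06) and in macrophages by 0.98 ± 0.17 (adjusted p = 4.8e-06). The log2 difference was 0.62 ± 0.30 in fibroblasts (adjusted p = 0.116) and 0.08 ± 0.48 in mural cells (adjusted p = 1). With DESeq2's size factors in place of TMM the fibroblast difference was 0.83 and passed the threshold (adjusted p = 0.0352).

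Mmp2, the gelatinase that Mmp14 activates, had its highest level in fibroblasts. Fibroblasts held 904, 1743 and 2353 CPM in WT libraries 1 to 3, 739.9, 993 and 426 CPM in Kmt2c KO and 1156, 677 and 1089 CPM in Kmt2d KO. Mural cells ranged from 36.0 to 330.1 CPM and H2BMc-positive cells from 10.3 to 32.0 CPM. These 3 ranges did not overlap. In total the 16707 H2BMc-positive cells still held more Mmp2 UMIs, 4159, than the 159 fibroblasts, 861. Mmp2 UMIs were seen in 127 of 159 fibroblasts (79.9%), 29 of 116 mural cells (25%) and 8.51% of H2BMc-positive cells, against 2 of 439 endothelial cells and 4 of 700 macrophages. The median cell held 4145 UMIs in fibroblasts, 2545 in mural cells and 11694 in H2BMc-positive cells. After thinning to 1000 UMIs per cell, 52.7% of fibroblasts, 12.2% of mural cells and 1.86% of H2BMc-positive cells held Mmp2. The fit gave a log2 difference from H2BMc-positive cells of 5.92 ± 0.34 in fibroblasts (adjusted p = 5.6e-17) and 3.76 ± 0.82 in mural cells (adjusted p = 0.0012), and 5.60 ± 0.26 and 3.0 ± 0.42 with sums of at least 10 cells. The mural difference rests on 1 sum in the first fit, and DESeq2 did not call it there (adjusted p = 0.296). Endothelial cells and macrophages, with 6 Mmp2 UMIs each, were lower than H2BMc-positive cells by 2.86 ± 0.53 (adjusted p = 1.2e-05) and 2.83 ± 0.55 (adjusted p = 2.2e-05), and the differences were −4.98 and −4.78 without Kmt2c KO library 2.

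Mmp9, the other gelatinase and often described as a product of neutrophils and macrophages, was read in the tumour cells of these libraries. H2BMc-positive cells held 36.4, 42.1 and 41.5 CPM in the WT libraries, 38.8, 32.2 and 23.0 in Kmt2c KO and 42.3, 52.5 and 48.2 in Kmt2d KO. Of 700 macrophages, 2 held Mmp9, with 8 UMIs, 7 of which came from 1 cell of WT library 2, and of 439 endothelial cells 1 held it. T cells held 6 UMIs (10.5 CPM; 3.84 to 22.8), with at most 2 in a library. No Mmp9 UMI was seen in 116 mural cells, which allows a level of up to 8.12 CPM (3 counts). Mmp9 was detected in 26.4% of H2BMc-positive cells and in 0.228% of endothelial cells, the class taken as background (median 4683 UMIs), and after each cell was thinned to 1000 UMIs in 3.13% and 0.131%. T cells held it in 1.43% of cells, and in 1.18% after thinning, both above the endothelial shares. Neutrophils, where Mmp9 is often found, could not be assessed, since only 3 cells held at least 2 neutrophil markers. In the fit, the log2 difference of Mmp9 from H2BMc-positive cells was −6.81 ± 0.68 in endothelial cells (adjusted p = 2.7e-11), −3.25 ± 0.47 in macrophages (adjusted p = 1.2e-07) and −4.23 ± 1.11 in fibroblasts (adjusted p = 0.0033). In T cells, with 4 sums, it was −1.95 ± 0.71 (adjusted p = 0.0219). The fibroblast call was lost with DESeq2 on both fibroblast sums (adjusted p = 0.203) and without Kmt2d KO library 1. Without Kmt2d KO library 2 the fibroblast value was −10.97. Leaving out either of these libraries leaves 1 fibroblast sum, with the error taken from the other classes. The endothelial value was −11.10 without Kmt2d KO library 1 and the macrophage value −6.11 without WT library 2.

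Mmp10, stromelysin-2, was read mainly in the same cells. H2BMc-positive cells held 2750 UMIs (11.9 CPM; 95% Poisson interval, 11.4 to 12.3). Fibroblasts, endothelial cells and mural cells held none, which allows up to 3.48, 1.10 and 8.12 CPM, and 1 of 700 macrophages held 2 UMIs. The mural limit lies near the H2BMc-positive level. A single dendritic cell held 5, which gave its class 7.45 CPM (2.42 to 17.4), an interval that includes the H2BMc-positive level. Mmp11, which is often described in the fibroblasts of carcinomas, had pooled levels of 18.6 CPM in fibroblasts (16 UMIs; 10.6 to 30.2), 18.9 CPM in mural cells (7 UMIs; 7.62 to 39.0) and 13.1 CPM in H2BMc-positive cells (3035 UMIs; 12.6 to 13.6). These intervals overlap and cover counting error only. Endothelial cells and macrophages were lower, at 1.47 (0.401 to 3.77) and 2.89 (1.06 to 6.30) CPM.

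Mmp12, the macrophage elastase, was read in macrophages in all 9 libraries, at 134, 539.5 and 292 CPM in WT, 30.3, 392 and 73.1 CPM in Kmt2c KO and 396, 108 and 166 CPM in Kmt2d KO. Every one of these values lay above every H2BMc-positive value, the highest of which was 3.73 CPM. No Mmp12 UMI was seen in fibroblasts, endothelial cells, mural cells or T cells, and dendritic cells held 43.2 CPM (29 UMIs). The transcript was unevenly spread: 96 of 700 macrophages (13.7%) held it, and the 10 highest cells held 45.9% of its UMIs. The log2 difference between macrophages and H2BMc-positive cells was 8.25 ± 0.53 (adjusted p = 3.1e-14). Mmp13, collagenase-3, followed with a log2 difference of 3.92 ± 0.57 (adjusted p = 4.4e-07), but its macrophage level ranged from 0 in Kmt2c KO library 1 and Kmt2d KO library 1 to 124 CPM in Kmt2c KO library 2. Mmp13 was held by 45 of 700 macrophages (6.43%) and the 10 highest held 59.8% of its 112 UMIs. In macrophages, 15 cells held both transcripts, which is 15.6% of the Mmp12-positive cells, and 4.97% of the other macrophages held Mmp13. The Mmp12-positive macrophages were deeper, with a median of 3278.5 against 2284 UMIs.

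Timp1, a secreted inhibitor of most MMPs, was highest in fibroblasts. All 9 fibroblast values, 291 to 5959.9 CPM, lay above all 9 H2BMc-positive values, 148 to 221 CPM, although 10 of 159 fibroblasts held 47.9% of the UMIs. The log2 difference was 2.12 ± 0.43 (adjusted p = 0.00014), and 3.33 ± 0.31 with sums of at least 10 cells, but DESeq2 did not call it on the 2 larger sums (adjusted p = 0.0844). Mural cells, at 0 to 335 CPM, overlapped the H2BMc-positive cells. Endothelial cells were lower by 2.47 ± 0.30 (adjusted p = 1.7e-09) and macrophages by 2.33 ± 0.32 (adjusted p = 2.6e-08), where 74.1% of the Timp1 UMIs came from 10 cells.

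Timp2, which bridges Mmp14 and pro-Mmp2, was read in overlapping ranges in H2BMc-positive cells and fibroblasts. These ranges by library were 491 to 678 and 391 to 852 CPM, and the log2 difference was 0.36 ± 0.32 over the 2 fibroblast sums (adjusted p = 0.464), 0.70 without Kmt2d KO library 1 and 0.028 ± 0.22 over 6 sums. Both H2BMc-positive cells and fibroblasts thus held Timp2 beside Mmp14, with 95.8% of H2BMc-positive cells holding Timp2 and 88.7% Mmp14. Macrophages, at 132 to 418 CPM, lay below the H2BMc-positive cells in every library and were lower by 1.26 ± 0.18 log2 (adjusted p = 1.0e-07). Endothelial cells were lower by 3.91 ± 0.23 (adjusted p = 8.1e-19). The mural difference was −2.44 ± 0.30 over the 7 sums of at least 10 cells (adjusted p = 3.6e-10) and −3.13 for the 1 sum of at least 20.

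Timp3, the matrix-bound inhibitor, was read mainly in stromal cells. Mural cells ranged from 545 to 2509.6 CPM, endothelial cells from 232 to 1084 CPM and fibroblasts from 0 to 1580.3 CPM, with overlap among these 3 classes. Both fibroblast values of 0 came from libraries with 3 and 5 fibroblasts. H2BMc-positive cells did not exceed 1.54 CPM, and none of 700 macrophages held a Timp3 UMI, which allows up to 1.45 CPM. Timp3 was seen in 67.2% of mural, 63.1% of endothelial and 40.9% of fibroblast cells. The log2 differences from H2BMc-positive cells were 10.74 ± 0.42 in mural cells over the 7 sums of at least 10 cells (adjusted p = 5.4e-26; 12.07 for the 1 larger sum), 10.07 ± 0.27 in endothelial cells (adjusted p = 2.9e-24) and 8.80 ± 0.47 in fibroblasts (adjusted p = 1.5e-15), or 9.75 ± 0.41 over 6 fibroblast sums. Of the 16707 H2BMc-positive cells, 50 held a Timp3 UMI, and 30% of these 50 also held an endothelial gate marker, against 1.87% of all H2BMc-positive cells. Mural and fibroblast gate markers were held by 10% and 12% of the 50, against 0.581% and 1.14%. The part of other cells' RNA in these 110 UMIs was not tested.

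Genes whose level followed each member over the 38 class sums were listed by Pearson's r of log2(CPM + 1), as a description, since sums of a class share their cells' identity and sums of a library share its depth. Those nearest to Mmp2 were Loxl1 (r = 0.92), Col5a2 (0.89) and Col5a3 (0.88), a matrix cross-linking enzyme and 2 collagen V chains. Those nearest to Mmp12 were Clec4n (0.95), Nxpe5 (0.94) and Clec4a2 (0.94), and those nearest to Mmp13 were Hcar2 (0.77), Clec4d (0.73) and Pstpip2 (0.73). For Timp3 they were Tshz2 (0.99), Fbxl7 (0.98) and the laminin chain Lama4 (0.98), and for Timp2 they were Lgals1 (0.87), Lrp1 (0.85) and Itgb5 (0.83). Mmp14 was nearest to Fer (0.90), Laptm4a (0.89) and Trim47 (0.85), Timp1 to Nenf (0.86), Nme2 (0.84) and P4hb (0.83), and Mmp9 to Nap1l1 (0.82), Mrps6 (0.81) and Atxn10 (0.80).

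The genotypes were then compared within H2BMc-positive cells, 1734 from WT, 8277 from Kmt2c KO and 6696 from Kmt2d KO tumours. In Kmt2c KO, 3 of the 10 members rose, Mmp13, Mmp10 and Mmp2, and none fell, where 18.7% of the 14089 genes tested were called (1348 higher and 1292 lower). No member was called in Kmt2d KO against WT, where 2.27% of genes were called, or in Kmt2d KO against Kmt2c KO, where 0.0781% were called. At an unadjusted p below 0.05 the counts were 2 members for Kmt2d KO against WT (Mmp13 and Timp1), where 17.1% of all genes were, and 6 for Kmt2d KO against Kmt2c KO, where 17.8% were, and DESeq2 called 1 and 3. Without Kmt2d KO library 2, 4140 genes in place of 2640 and 3 members were called in Kmt2c KO against WT, and 823 genes in place of 320 and no member in Kmt2d KO against WT. Of these cells, 93.4% from WT, 74.8% from Kmt2c KO and 82.7% from Kmt2d KO tumours held Krt8, at 549.6 to 569 CPM, 235 to 339 CPM and 304 to 466 CPM by library. Among cells with both H2BMc and Krt8, 2 members (Mmp13 and Mmp10) were called in Kmt2c KO. In cells with a mitochondrial share under 5%, Mmp13 (log2 fold change 7.64), Mmp10 (1.48) and Mmp2 (1.34) were called in Kmt2c KO. The comparisons with WT share the WT libraries. Where libraries of 2 groups are said not to overlap, here and below, this is a description, since the share of all genes without overlap was not counted. Genes that were not called also lacked overlap, such as Itgav in Kmt2c KO against WT (log2 fold change 0.10, adjusted p = 0.43). The median log2 fold change of the 10 members was 0.24 in Kmt2c KO and 0.30 in Kmt2d KO, and that of all genes was −0.0039 and 0.0050. Without Kmt2d KO library 2 the Kmt2d KO median of the members lay between the values of Mmp2 (0.11) and Mmp9 (0.15). The member medians include Timp3, which was too low in these cells for a fold change.

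**Figure D2:**
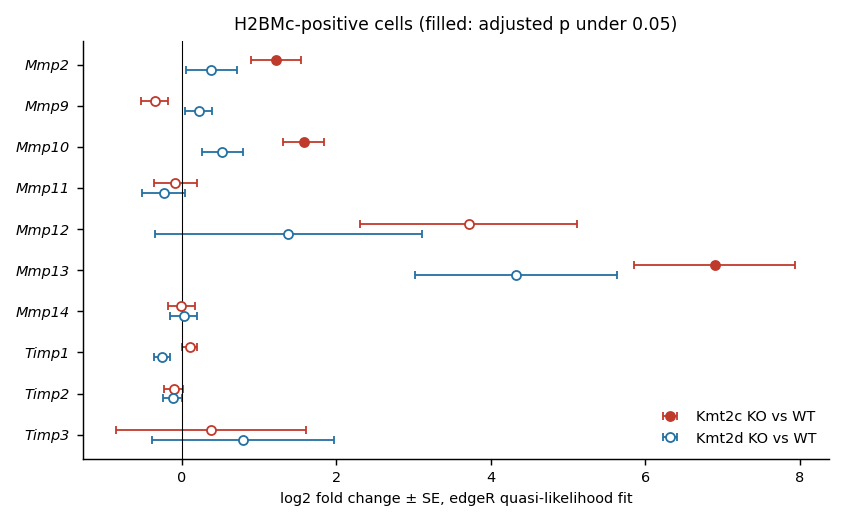
Log2 fold change against WT in H2BMc-positive cells for each gene (x axis), with a standard error derived from the edgeR F test, in Kmt2c KO and Kmt2d KO. Filled points have an adjusted p under 0.05. Mmp13, Mmp10 and Mmp2 in Kmt2c KO are filled, at 6.90, 1.58 and 1.22, and no Kmt2d KO point is.

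Mmp10, Mmp12 and Mmp13 lie with Mmp3 in a cluster on mouse chromosome 9, and the windows upstream of their starts are shown because, among the members, these genes had the 3 largest fitted log2 fold changes in Kmt2c KO against WT, of which that of Mmp12 did not pass the test. In GRCm38.p6, the RefSeq assembly that corresponds to the mm10 build named in the submitters' processing notes, Mmp13 occupies chr9:7272514-7283333, Mmp12 chr9:7344397-7360461, Mmp3 chr9:7445822-7455975 and Mmp10 chr9:7502342-7510242, a span of 237.7 kb. RefSeq windows of the 250 bases before a start were found for 8 of the 10 members, and Mmp2 and Mmp9 had no entry. The windows of Mmp13 (chr9:7272264-7272513), Mmp10 (chr9:7502092-7502341) and the second annotated start of Mmp12 (chr9:7347124-7347373) read 5′ to 3′ on the plus strand, with the AP-1 heptamer TGAGTCA or its reverse complement TGACTCA and the letters TATAAA in capitals:
Mmp13: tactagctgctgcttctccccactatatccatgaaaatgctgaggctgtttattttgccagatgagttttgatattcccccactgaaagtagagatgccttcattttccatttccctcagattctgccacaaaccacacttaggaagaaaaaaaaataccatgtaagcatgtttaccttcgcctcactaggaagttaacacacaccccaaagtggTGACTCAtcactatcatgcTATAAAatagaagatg
Mmp10: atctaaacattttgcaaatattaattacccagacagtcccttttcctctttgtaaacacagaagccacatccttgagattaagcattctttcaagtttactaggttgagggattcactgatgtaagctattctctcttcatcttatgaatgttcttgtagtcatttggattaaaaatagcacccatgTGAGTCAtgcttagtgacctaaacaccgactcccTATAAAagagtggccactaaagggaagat
Mmp12: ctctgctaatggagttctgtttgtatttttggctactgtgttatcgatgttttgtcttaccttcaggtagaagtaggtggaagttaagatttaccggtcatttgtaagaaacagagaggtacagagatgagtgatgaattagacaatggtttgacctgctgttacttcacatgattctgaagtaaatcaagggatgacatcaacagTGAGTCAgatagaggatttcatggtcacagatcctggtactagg
The AP-1 heptamer, searched on both strands, began 35 bases before the start of Mmp13, 63 bases before that of Mmp10 and 44 bases before the second start of Mmp12, and was also found 46 bases before the start of Mmp3. It was not found in the windows of the first Mmp12 start, Mmp11, Mmp14, Timp1, Timp2 or Timp3. Of all 32851 windows of this length, 4.46% held it. TATAAA on the gene's own strand stood in the Mmp13, Mmp10 and Mmp3 windows and in 7.59% of all windows, and the GC box GGGCGG in those of Mmp11, Mmp14, Timp1, Timp2 and Timp3 and in 32.7% of all. These are matches of letters and say nothing of binding.

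**Figure D3:**
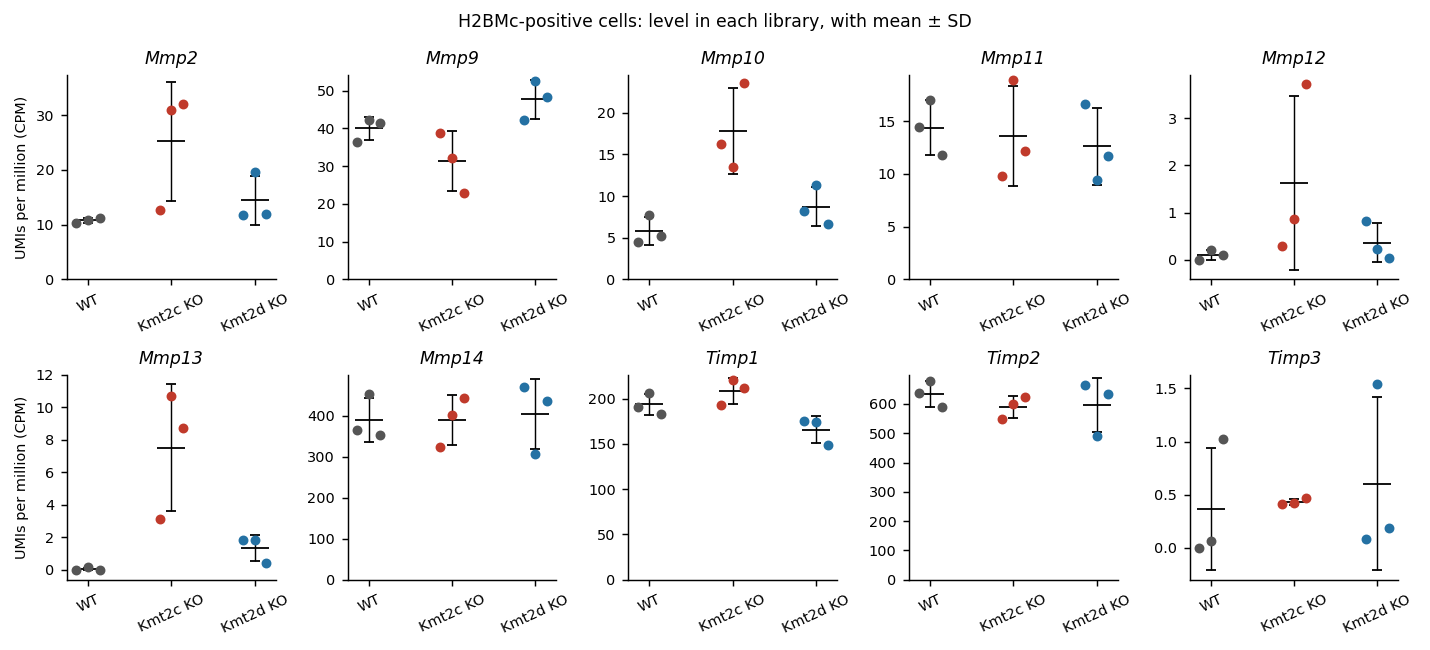
CPM of each gene in H2BMc-positive cells (y axis) for the 9 libraries by genotype, with the mean and SD of 3 libraries. Mmp10 and Mmp13 in Kmt2c KO lie above all WT libraries, Mmp2 is spread from 12.6 to 32.0 CPM within Kmt2c KO, and Timp1 is lower in Kmt2d KO than in the other groups.

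Mmp13, whose upstream window holds both motifs, was all but absent from the WT tumour cells. The WT libraries held 0, 0.139 and 0 CPM (2 UMIs in 1734 cells), Kmt2c KO 3.14, 10.7 and 8.75 CPM (695 UMIs) and Kmt2d KO 1.84, 1.80 and 0.417 CPM (120 UMIs). Each knockout library was thus above each WT library, and each Kmt2c KO library above each Kmt2d KO library. The ratio of pooled counts was 126-fold for Kmt2c KO (95% counting interval, 34.6 to 1039) and 19.9-fold for Kmt2d KO (5.40 to 166). The fitted log2 fold change, which depends on the prior count at such low WT counts, was 6.90 ± 1.04 in Kmt2c KO (adjusted p = 0.0024) and 4.33 ± 1.31 in Kmt2d KO (adjusted p = 0.127). DESeq2 called the Kmt2d KO difference (4.57, adjusted p = 0.0174), as did the edgeR fit without a filter on low counts (4.35, adjusted p = 0.0228). Without WT library 2, which held both WT UMIs, the fitted values were 10.70 (adjusted p = 0.0215) and 8.12 (adjusted p = 0.305), and without Kmt2d KO library 2 the Kmt2d KO value was 3.94 (adjusted p = 0.168). Between the knockouts Mmp13 differed by −2.57 ± 0.55 (adjusted p = 0.0782), which became −2.95 (adjusted p = 0.0037) without Kmt2d KO library 2.

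The Mmp13 UMIs sat in few tumour cells. In Kmt2c KO, 241 of 8277 H2BMc-positive cells held them and in Kmt2d KO 59 of 6696, with up to 73 UMIs in a cell. After thinning to 1000 UMIs per cell, the share of positive cells was 0.578% ± 0.244 (SD, n = 3) in Kmt2c KO, 0.163% ± 0.097 in Kmt2d KO and 0.0037% ± 0.0064 in WT, and the two-sided exact permutation p was 0.1 for each, the smallest that 3 against 3 libraries allow. No endothelial cell of 439 held Mmp13. Of the 241 Kmt2c KO cells, 87.1% also held Mmp3, 22.4% Mmp2, 7.47% Mmp12 and 14.5% Mmp10, against 52.3%, 7.77%, 0.398% and 11.5% of the other Kmt2c KO cells, at a median of 10885 and 10008 UMIs. Krt8 was held by 64.3% of the 241 and by 74.8% of all Kmt2c KO H2BMc-positive cells.

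Since macrophages also held Mmp13, macrophage RNA in the H2BMc-positive cells was measured through C1qa, a complement gene. C1qa in H2BMc-positive cells was 1.53 to 7.32 CPM, or 0.0595% to 0.256% of its level in the macrophages of the same library. The same percentage of the macrophage Mmp13 level is 0 to 0.20 CPM over the libraries, and is 0 in Kmt2c KO library 1 and Kmt2d KO library 1, whose macrophages held no Mmp13 UMI. Whether both transcripts carry over in the same proportion was not tested. Among H2BMc-positive cells with no macrophage marker UMI, Mmp13 was called in Kmt2c KO as well. This set excluded cells with any listed macrophage marker, those not used for the gate included. It held 220 to 2753 cells per library, against 361 to 3434 in the full set.

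Mmp10 was measured at 4.50, 7.70 and 5.21 CPM in WT, 16.3, 13.5 and 23.6 CPM in Kmt2c KO and 8.22, 11.3 and 6.69 CPM in Kmt2d KO. The Kmt2c KO libraries lay above all others, while Kmt2d KO overlapped WT. The log2 fold change was 1.58 ± 0.26 in Kmt2c KO (adjusted p = 0.0037) and 0.52 ± 0.27 in Kmt2d KO (adjusted p = 0.348). The Kmt2d KO value was 0.29 without Kmt2d KO library 2 and 0.82 without WT library 2. The knockouts differed by −1.05 ± 0.24 (adjusted p = 0.0831), and by −1.28 (adjusted p = 0.0014) without Kmt2d KO library 2. The thinned share of positive cells was 1.51% ± 0.34 (SD, n = 3) in Kmt2c KO and 0.410% ± 0.127 in WT (two-sided exact permutation p = 0.1, the smallest allowed). Unlike Mmp13, the Mmp10 UMIs were spread over many cells, with 961 of 8277 Kmt2c KO cells holding 1676 of them. The call for Mmp10 in Kmt2c KO held under every alternative cell set and without any single library, as did that for Mmp13.

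Mmp2 in tumour cells, at 10.3, 10.8 and 11.1 CPM in WT, was 12.6, 31.0 and 32.0 CPM in Kmt2c KO and 11.7, 19.6 and 12 CPM in Kmt2d KO. Every Kmt2c KO library exceeded every WT library, but library 1 by little. The log2 fold change was 1.22 ± 0.33 (adjusted p = 0.0271) in Kmt2c KO and 0.38 ± 0.33 (adjusted p = 0.608) in Kmt2d KO, which was 0.11 without Kmt2d KO library 2. The Kmt2c KO call depended on the cells and libraries. It was lost among cells with both H2BMc and Krt8 (1.05, adjusted p = 0.051), with the wider set of cells that held H2BMc or Krt8 outside the gates (0.91, adjusted p = 0.1), among cells with no macrophage marker UMI (0.90, adjusted p = 0.1), and without any single WT library or Kmt2c KO library 2 or 3 (1.03 to 1.27, adjusted p = 0.0777 to 0.0925).

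Much of the Mmp2 lay in few cells. Of the H2BMc-positive cells, 215 held at least 5 Mmp2 UMIs, and these held 53.0% of all Mmp2 UMIs of the class. They numbered 17 of 1734 in WT (31.5% of the UMIs), 127 of 8277 in Kmt2c KO (60.6%) and 71 of 6696 in Kmt2d KO (46.3%). By library these cells were 1.12%, 0.541% and 1.94% in WT, 0.641%, 2.04% and 2.32% in Kmt2c KO and 0.702%, 1.43% and 1.03% in Kmt2d KO, so that the groups overlapped. This split describes the Mmp2 counts themselves and was not adjusted for depth. The thinned share of positive cells was 2.21% ± 0.86 (SD, n = 3) in Kmt2c KO and 1.53% ± 0.09 in WT, with a two-sided exact permutation p of 0.4. Since the Mmp2 level was highest in fibroblasts, their markers were counted in these cells. Of the 215 cells, 2.33% held a UMI of a fibroblast gate marker and 74.4% held Krt8, against 1.14% and 79.9% of all H2BMc-positive cells. By level, the fibroblast gate markers summed to 78.6 CPM in the 215 cells and 2.11 CPM in all H2BMc-positive cells. In Kmt2c KO these levels were 133.9 CPM, from 1.57% of the 127 cells, and 3.49 CPM, whereas the 17 WT cells held none. Without cells that held such a marker the log2 fold change was 1.20 (adjusted p = 0.0388). The gate markers were only 4 fibroblast genes (Col1a2, Col14a1, Thy1 and Gpx3), those for which under 20% of the cells that held them were H2BMc-positive.

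**Figure D4:**
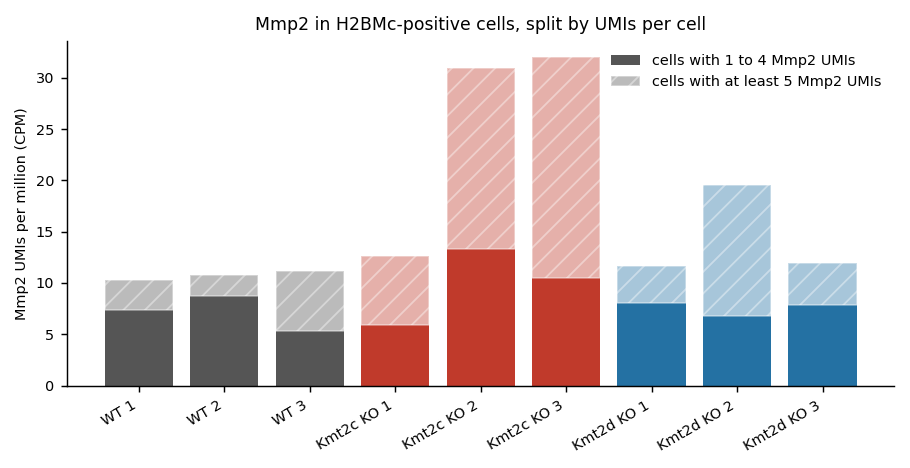
Mmp2 CPM in the H2BMc-positive cells of each library (bars, from 0), split into UMIs from cells with 1 to 4 Mmp2 UMIs (solid) and from cells with at least 5 (hatched). The hatched part is largest in Kmt2c KO libraries 2 and 3, where the total was 31.0 and 32.0 CPM.

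Mmp12 in tumour cells was near the limit of counting. The WT libraries held 0, 0.208 and 0.102 CPM (4 UMIs), Kmt2c KO 0.294, 0.854 and 3.73 CPM (148 UMIs) and Kmt2d KO 0.818, 0.229 and 0.0417 CPM (29 UMIs). The WT and Kmt2c KO values did not overlap, which is a description only, and Kmt2c KO library 3 held most of the rise. The ratio of pooled counts was 13.4-fold in Kmt2c KO (5.11 to 49.7) and 2.41-fold in Kmt2d KO (0.845 to 9.43), and the log2 fold change of 3.71 ± 1.40 in Kmt2c KO did not pass (adjusted p = 0.0909). It passed with DESeq2 (adjusted p = 0.0106), without the filter on low counts (adjusted p = 0.0245) and without Kmt2c KO library 1 (adjusted p = 0.0422), and was 2.28 without Kmt2c KO library 3 (adjusted p = 0.286). In Kmt2d KO the log2 fold change was 1.38 ± 1.73 (adjusted p = 0.742). That value was 0.017 without Kmt2d KO library 1 and 2.52 without WT library 2. At the C1qa percentages above, the macrophage level corresponds to 0.0268 to 0.559 CPM of Mmp12 over the libraries, with 0.149 CPM in Kmt2c KO library 3. The part of macrophage RNA in the tumour-cell Mmp12 was not tested. A single Kmt2c KO cell held 55 of the UMIs.

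The remaining members did not pass the test in either knockout. Mmp9 had a log2 fold change of −0.35 ± 0.18 in Kmt2c KO (adjusted p = 0.195), or −0.15 without Kmt2c KO library 3, and 0.22 ± 0.18 in Kmt2d KO (adjusted p = 0.583), or 0.15 without Kmt2d KO library 2. Between the knockouts, whose Mmp9 values did not overlap, it differed by 0.57 ± 0.17 (adjusted p = 0.146), which passed without the filter on low counts (0.56, adjusted p = 0.047) and was 0.37 without Kmt2c KO library 3. The unthinned share of Mmp9-positive cells was 20.7% in Kmt2c KO and 34.2% in WT, but WT cells were deeper (median 16878.5 against 10032 UMIs), and after thinning the shares were 2.59% ± 0.66 and 3.09% ± 0.29 (SD, n = 3; two-sided exact permutation p = 0.3). Timp1 was 191, 207 and 183 CPM in WT and 175, 174 and 148 CPM in Kmt2d KO, which do not overlap, with a log2 fold change of −0.26 ± 0.10 (adjusted p = 0.222). In Kmt2c KO its log2 fold change was 0.10 ± 0.10 (adjusted p = 0.495). The knockouts differed in Timp1 by −0.36 ± 0.10 (adjusted p = 0.119), and by −0.39 (adjusted p = 0.0237) without Kmt2d KO library 2. Mmp14, Timp2 and Mmp11 had log2 fold changes between −0.23 and 0.03 in the knockouts, with standard errors of 0.12 to 0.28, and in Kmt2d KO these were 0.20, 0.011 and −0.072 without Kmt2d KO library 2. Timp3 was too low in these cells for a fold change (11, 41 and 58 UMIs in WT, Kmt2c KO and Kmt2d KO). Without Kmt2d KO library 2, 4 members in all were lower in Kmt2d KO than in Kmt2c KO (Mmp2, Mmp10, Mmp13 and Timp1), and the number of all genes called rose from 11 to 2797.

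Within the gated stroma, the genotypes were compared in endothelial cells and macrophages, where every library held at least 20 cells. They were not compared in fibroblasts or in mural cells, which numbered 10 to 25 per library in WT and Kmt2c KO. In macrophages, 1 of the 3 members tested was called in Kmt2c KO, where 7.57% of genes were called, and none in Kmt2d KO, where 0.0256% were. In endothelial cells, 1 of 4 was called in Kmt2c KO, where 6.75% of genes were, and none in Kmt2d KO, where 0.0375% were. The Kmt2d KO counts at an unadjusted p below 0.05 were 0 of 3 in macrophages, where 5.89% of all genes were, and 1 of 4 (Timp3) in endothelial cells, where 10.4% were, and DESeq2 called none. Without Kmt2d KO library 2, 691 genes in place of 360 were called in endothelial cells of Kmt2c KO and 19 in place of 2 in those of Kmt2d KO.

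Mmp14 was higher in the macrophages of Kmt2c KO tumours. It measured 63.6, 211 and 101 CPM in WT, 242, 408 and 359 CPM in Kmt2c KO and 185, 221 and 78.9 CPM in Kmt2d KO. The WT and Kmt2c KO libraries did not overlap, and the log2 fold change was 1.54 ± 0.39 (adjusted p = 0.0256). These values rest on 35 to 170 macrophages per library, and the call was lost without WT library 1 or 3 or Kmt2c KO library 2 or 3 (1.24 to 1.53, adjusted p = 0.09 to 0.137). In Kmt2d KO the log2 fold change was 0.48 ± 0.42 (adjusted p = 0.925), and 0.23 without Kmt2d KO library 2. It ranged from 0.19 to 1.05 over all single libraries left out. Mmp12 in macrophages was unequal between libraries of a group and had a log2 fold change of −0.76 ± 0.66 in Kmt2c KO (adjusted p = 0.568; −2.41 to −0.18 with a library left out) and −0.45 ± 0.67 in Kmt2d KO (adjusted p = 0.974). Timp2 had −0.02 ± 0.39 and 0.29 ± 0.40. Without Kmt2d KO library 2 the Kmt2d KO values of Mmp12 and Timp2 were −0.10 and 0.62.

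Timp3 was higher in the endothelial cells of Kmt2c KO tumours. It measured 237, 319 and 268 CPM in WT and 626, 623 and 998 CPM in Kmt2c KO, with no overlap, and 304, 1084 and 232 CPM in Kmt2d KO, where library 2 stood above the rest. The log2 fold change in Kmt2c KO was 1.48 ± 0.42 (adjusted p = 0.0439), on 31 to 70 cells per library, and the call was lost with DESeq2 (1.45, adjusted p = 0.184) and without any single WT or Kmt2c KO library (1.22 to 1.57, adjusted p = 0.0739 to 0.183). The Kmt2d KO value was 0.97 ± 0.42 (adjusted p = 0.426), and −0.072 without library 2 (adjusted p = 0.957), but 0.90 and called without the filter on low counts (adjusted p = 0.0066). Timp2, Mmp14 and Timp1 in endothelial cells did not pass, at 1.41 ± 0.61, 0.46 ± 0.19 and −0.61 ± 0.42 in Kmt2c KO. Timp2 was called there without the filter on low counts (1.28, adjusted p = 0.0153), and ranged from 0.54 to 1.99 with a library left out.

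**Figure D5:**
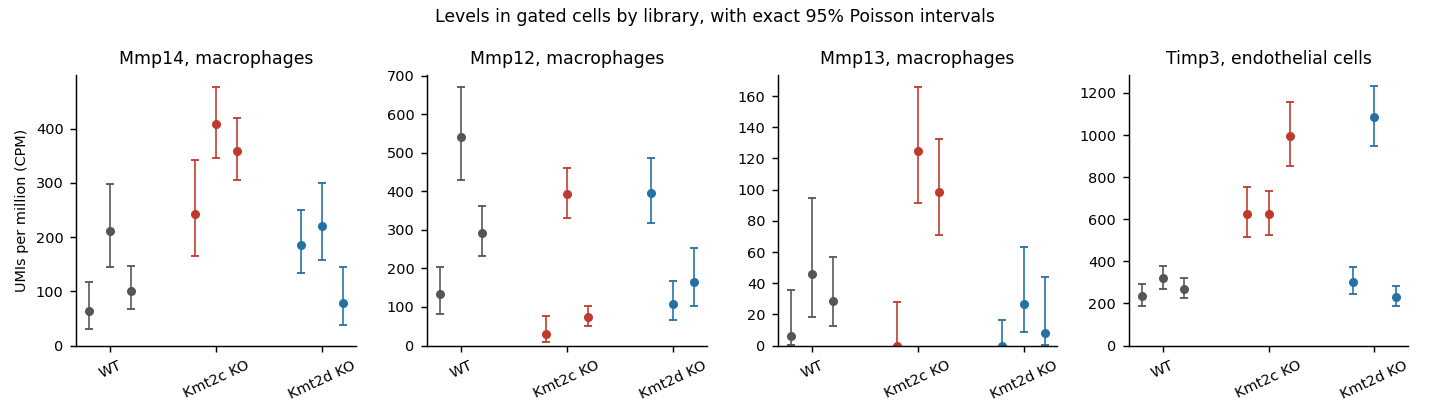
CPM of members in gated macrophages and endothelial cells by library and genotype, with exact 95% Poisson intervals that cover counting error only. Mmp14 in macrophages and Timp3 in endothelial cells are higher in the 3 Kmt2c KO libraries than in the 3 WT libraries, and the macrophage collagenase and elastase vary widely within each group.

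Whether a knockout effect differed between a stromal class and the tumour cells was tested as an interaction on the library-by-class sums (9024 genes). For Kmt2c KO, 3 of 8 members differed between macrophages and H2BMc-positive cells, where 2.5% of genes did, and none differed between endothelial and H2BMc-positive cells, where 2.28% did. For Kmt2d KO no member differed, where 0.144% of genes did in macrophages and 0.0776% in endothelial cells. At an unadjusted p below 0.05, 1 member was counted for Kmt2c KO in endothelial cells (Timp2), none for Kmt2d KO in endothelial cells and 2 for Kmt2d KO in macrophages (Mmp13 and Timp1). Of all genes, 13.4%, 7.44% and 7.27% were in the same order, and DESeq2 was not run on this model. Without Kmt2d KO library 2, Mmp13 was called for Kmt2d KO in macrophages (−7.54, adjusted p = 0.0317), a fitted value that rests on few UMIs, and the genes called for Kmt2c KO were 346 in place of 226 in macrophages and 319 in place of 206 in endothelial cells. The Mmp14 effect was higher in macrophages than in tumour cells by 1.58 ± 0.32 log2 (adjusted p = 0.0043), and in the tumour cells alone its log2 fold change was −0.0046 (adjusted p = 0.989). The effect in macrophages minus that in tumour cells was −5.38 ± 1.11 for Mmp13 (adjusted p = 0.0079) and −4.76 ± 1.15 for Mmp12 (adjusted p = 0.023). These 2 differences rest on the 2 and 4 UMIs of the WT tumour cells. Mmp12 alone had opposite signs, −0.76 in macrophages and 3.71 in tumour cells, and neither passed. Mmp13 was not tested within macrophages. Each of the 3 interaction calls was lost when certain single libraries were left out, with 0 to 3 members called.

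Other genes of the proteolytic system were counted in H2BMc-positive cells by 3 lists. Among 17 further MMP and TIMP genes, 3 passed the filter on low counts. Of these, 2 were called in Kmt2c KO and 1 in Kmt2d KO, where 18.7% and 2.27% of all genes were. Mmp3 rose in both knockouts, by 3.0 ± 0.25 log2 in Kmt2c KO (adjusted p = 0.00015) and 2.01 ± 0.24 in Kmt2d KO (adjusted p = 0.0025; 2.05 without Kmt2d KO library 2), and Mmp19 in Kmt2c KO by 0.55 ± 0.14 (adjusted p = 0.0215). The list's median over only 3 genes is the value of Mmp19 itself, 0.55 in Kmt2c KO and 0.39 in Kmt2d KO. Of 26 activators, receptors and regulators of MMPs, 20 were tested, and in Kmt2c KO 4 rose and 3 fell, where 18.7% of all genes were called, with a list median of 0.13. The 3 with the largest rises were Lcn2 (4.91 ± 1.05), whose lipocalin forms a complex with Mmp9, Thbs1 (1.89 ± 0.28) and Plau (1.47 ± 0.27), the urokinase that starts plasmin-dependent activation of proMMPs. Cldn1 fell by 1.61, Cd151 by 0.57 and Sparc by 0.46. In Kmt2d KO edgeR called none of the 20, with a median of 0.10, while 8 had an unadjusted p below 0.05 (17.1% of all genes) and DESeq2 called 4. Of 16 ADAM and ADAMTS proteases, 12 were tested, of which 2 were called in Kmt2c KO and 1 in Kmt2d KO, where 18.7% and 2.27% of all genes were. Adamts7 rose in Kmt2c KO by 0.60 ± 0.08 and in Kmt2d KO by 0.45 ± 0.08, Adam17 rose in Kmt2c KO by 0.36 ± 0.11, and the list's median was 0.12 and 0.04. Between the knockouts edgeR called no gene of the 3 lists. An unadjusted p below 0.05 was given there to 1, 4 and 3 genes in the order of the lists and to 17.8% of all genes, and DESeq2 called 1, 2 and 0. When Kmt2d KO library 2 was left out, where the counts over all genes rose too, Kmt2c KO against WT called 2, 9 and 5 genes of the lists, Kmt2d KO against WT 1, 2 and 2, and the knockouts against each other 1, 7 and 3. Adamts7 in Kmt2d KO was then 0.45 (adjusted p = 0.0105).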

How the data were processed

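Droplet 5′ single-cell RNA libraries of 9 tumours were analysed, 3 each of WT, Kmt2c KO and Kmt2d KO. The authors deposited a single table of raw UMI counts per gene and barcode, made with Cell Ranger 7.0.1 on the mm10 build per the submitters' processing notes and merged over the libraries, with 32286 features, 89147 barcodes and 585680611 UMIs. The deposited counts were used unscaled, and no column of the authors' own comparisons was present. The suffix of a barcode gave its library, and a deposited list of the merged libraries gave a genotype letter for each. C was read as Kmt2c KO, D as Kmt2d KO and X as WT, as in the sheet names of its tables of comparisons. The letters do not say which numbered GEO sample a library is. The filters of the study (more than 500 and fewer than 7500 genes, mitochondrial share below 15%) left 58645 cells. No doublet caller was run. Cells with an H2BMc or Krt8 UMI, or with as many markers of another type, were instead kept out of the gates. A gated cell could still hold fewer markers of another type. An alternative set was H2BMc-positive cells with no Ptprc or Pecam1 UMI and fewer than 2 gate markers of any non-fibroblast type.

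H2BMc-positive cells were those with at least 1 UMI of H2BMc. Of 60 markers listed, 37 that were held by at least 50 cells, of which under 20% were H2BMc-positive, were used for gates of at least 2 markers. Counts were summed per library and class (at least 20 cells) and tested with edgeR 4.0.16 in R 4.3.3 (TMM, filterByExpr, quasi-likelihood F test), over all libraries for genotypes and with library as a block for classes. The genotype, class and interaction models were run on simulated data in which only genes with higher counts were changed. Members with few UMIs, such as Mmp12 in tumour cells, were therefore not covered by it. DESeq2 1.42.0, its size factors, no filter on low counts, only the groups compared, other cell sets and gates, a mitochondrial limit of 5%, and leaving out each library were the alternatives. Sets without macrophage or fibroblast markers and the interaction without each library were added after the data were seen. The first of these sets excluded all listed macrophage markers, the second only the fibroblast gate markers. Standard errors of edgeR values were derived as the absolute log2 fold change divided by the square root of the F statistic. CPM values are counts per 1000000 UMIs of the same cells. Intervals are exact 95% Poisson intervals, and a count of 0 allows up to 3 counts, both for counting error only. For shares each cell was thinned to 1000 UMIs. Python 3.11.15, numpy 2.4.6, scipy 1.17.1, pandas 2.3.3 and matplotlib 3.10.9 were used. All members were named, together with up to 6 called genes per list, those with the largest absolute log2 fold change and no overlap between groups, and the 3 genes nearest to a member by Pearson's r. The members, lists and tests were chosen with earlier results of these data known.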

Additional observations from a re-analysis of the deposited data

Results flagged for a closer look

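In 3 members the Kmt2c KO effect in macrophages differed from that in H2BMc-positive tumour cells by a test of the difference itself, an edgeR interaction term over all libraries. The difference of the log2 effects, macrophages minus tumour cells, was −5.38 for Mmp13, −4.76 for Mmp12 and 1.58 for Mmp14. The call for Mmp12 was lost without any single WT library or Kmt2c KO library 3 (−6.65 to −2.98 over all libraries left out), that for Mmp13 without WT library 2 or 3 (−6.92 to −4.96) and that for Mmp14 without WT library 1 or 3 (1.29 to 1.99). No gap test for a library far from the rest of its group was run on single values, since each group held 3 libraries.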

How the results depend on the processing

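No paired analysis was possible because the libraries carry no replicate numbers of the labels. Apart from leaving out libraries, 419 of 458 recomputed log2 differences of members kept direction and side of the threshold. With a library left out, 571 of 634 did. Only differences with a standard error of at most 2 in the fit of all libraries were recomputed for these totals. Of the interactions, only those called were included. Counts of genes and members called are not in these totals and are described below. Fibroblast and mural sums were few, WT libraries held the fewest tumour cells, Kmt2d KO library 2 lay apart, and members with few UMIs were limited by counting. Causes of the changes below were not tested, except that fewer libraries or cells were used where stated.

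With DESeq2, genes called (members in brackets) in H2BMc-positive cells were 682 (1) for Kmt2d KO against WT and 565 (3) between the knockouts, where edgeR called 320 (0) and 11 (0). It called 2 members between fibroblasts and tumour cells in place of 4, 0 members in endothelial cells of Kmt2c KO in place of 1, 17 genes in endothelial cells of Kmt2d KO in place of 2 and 191 in macrophages of Kmt2c KO in place of 296. Without the filter on low counts the counts were 516 (1) for Kmt2d KO, 521 (3) between the knockouts, 615 (2) and 146 (1) in endothelial cells of Kmt2c KO and Kmt2d KO, and 636 (2) and 60 (1) in macrophages. With only the compared groups, 177 genes were called in Kmt2d KO and 0 between the knockouts, with cells of at least 2 H2BMc UMIs 209 and 121 (2), without macrophage markers 208 and 4, with the wider set 0 between the knockouts, and at a mitochondrial limit of 5% 46. Mural sums of at least 10 cells gave 3124 genes in place of 1110. The mean share of positive cells was above that of WT in 5 members in Kmt2c KO and 6 in Kmt2d KO after thinning and in 3 and 3 unthinned.

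Signs reversed for small differences. Mmp14 in Kmt2c KO was 0.033 without the filter, 0.089 with at least 2 H2BMc UMIs and 0.14 at the 5% limit, and in Kmt2d KO −2.7e-06 with H2BMc and Krt8, −0.081 with the wider set and −0.078 without macrophage markers. Mmp11 in Kmt2c KO was 0.13 with at least 2 H2BMc UMIs and 0.025 at the 5% limit, and Timp3 −0.11 at that limit and −0.083 without macrophage markers. Between the knockouts Mmp14 was −0.028 and Timp2 0.0029 with at least 2 H2BMc UMIs, and Timp2 was 0.0020 with H2BMc and Krt8 and 0.021 without macrophage markers. Mmp14 in mural cells was −0.0049 and Timp2 in Kmt2c KO macrophages 0.0037 without the filter, and Timp2 there was 0.087 with 3 markers.

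Leaving out a library gave these ranges of genes called. In H2BMc-positive cells they were 1256 to 4140 for Kmt2c KO (2640 in full), 98 to 823 for Kmt2d KO and 0 to 2797 between the knockouts, with 2 to 4, 0 to 0 and 0 to 4 members. Against tumour cells they were 5370 to 6079 for endothelial cells, 1387 to 2615 for fibroblasts, 5899 to 6569 for macrophages and 1019 to 1074 for mural cells, with 6 to 6, 3 to 5, 7 to 7 and 3 to 3 members. Between genotypes they were 125 to 691 and 0 to 33 in endothelial cells and 64 to 432 and 1 to 2 in macrophages for Kmt2c KO and Kmt2d KO, with 0 to 1 and 0 to 2 members for Kmt2c KO and 0 to 0 for Kmt2d KO. Interactions ranged over 64 to 319 and 0 to 19 in endothelial cells and 85 to 346 and 3 to 18 in macrophages, with 0 to 3 members for Kmt2c KO and 0 to 1 for Kmt2d KO in macrophages. Members with a mean share above WT numbered 5 to 6 in Kmt2c KO and 5 to 7 in Kmt2d KO.

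Values whose sign changed when a library was left out were, in H2BMc-positive cells of Kmt2c KO, Mmp11 (−0.41 to 0.13), Mmp14 (−0.072 to 0.13) and Timp3 (−0.22 to 3.30). In Kmt2d KO they were Mmp14 (−0.099 to 0.20), Timp2 (−0.21 to 0.011) and Timp3 (−1.14 to 3.71), and between the knockouts Mmp11 (−0.41 to 0.19), Mmp14 (−0.11 to 0.20), Timp2 (−0.12 to 0.12) and Timp3 (−1.53 to 0.91). In macrophages they were Mmp12 (−1.22 to 0.14) and Timp2 (−0.042 to 0.62) in Kmt2d KO and Timp2 (−0.39 to 0.33) in Kmt2c KO, and in endothelial cells of Kmt2d KO Timp1 (−0.064 to 0.45), Timp2 (−0.35 to 1.14) and Timp3 (−0.072 to 1.36).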

Other observations

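T cells held Timp2 at 230.2 CPM (132 UMIs in 71 of 350 cells, 20.3%), and dendritic cells held Mmp12 at 43.2 CPM. The class fit held 4 sums of each class. Timp2 in T cells differed from H2BMc-positive cells by −1.64 ± 0.29 log2 (adjusted p = 1.1e-05). Mmp12 in dendritic cells differed by 5.72 ± 1.24 (adjusted p = 0.00031). Macrophages were also read by the receptor Mrc1, which 401 cells held (median 2659 UMIs) and 299 did not (median 2022 UMIs). With and without Mrc1, Mmp12 was 291 CPM (95% Poisson interval, 263 to 322) and 146 CPM (120 to 177), and Timp2 was 297 CPM (269 to 328) and 175 CPM (146 to 208). Mmp14 had the opposite order, at 215 CPM (191 to 241) and 298 CPM (260 to 341). Mmp13 was 60.8 CPM (48.3 to 75.5) and 41.4 CPM (27.9 to 59.1), with overlapping intervals. The cells are no replicates, and these values were not tested. Of the 59 Kmt2d KO H2BMc-positive cells with Mmp13, 84.7% also held Mmp3, against 50.8% of the others.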
